A study of Mus musculus with 8 samples.

Results

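Haematopoietic stem cells and multipotent progenitors that were not in cycle were examined in bone marrow from a mouse model of myeloproliferative neoplasm. They were chosen by a rule on single cells. A cell had to pass the quality filter, carry at least 3 of 8 stem cell transcripts (Hlf, Mecom, Meis1, Angpt1, Adgrl4, Adgrg1, Myct1 and Procr), devote less than 0.5% of its UMIs (unique molecular identifiers, the counts of single mRNA molecules) to the granule genes Mpo, Elane, Prtn3 and Ctsg, and hold fewer than 3 UMIs of the mitosis genes Mki67, Top2a, Cenpf and Nusap1 together. The rule kept 1901 of 22078 passing cells. Because the cells were selected on these 16 genes, values of those genes are given below only as a description. The series asks what Gli1, which encodes an activator of hedgehog target genes, does in blood-forming cells during JAK2V617F-driven myelofibrosis. Donor marrow came from 8-week-old wild type (WT) mice or mice lacking Gli1 (Gli1-/-, here KO) and was transduced with retrovirus for JAK2V617F, the constitutively active kinase of these neoplasms, or for normal JAK2 (JAK2WT). All recipients were female B6.SJL mice, aged 8-10 weeks, irradiated with 10.5 Gy, and marrow was taken 112 days after transplantation. For each of the 4 combinations the marrow of 3 mice was hash-tagged, depleted of cells with CD11b, GR1, TER119, B220 or CD3, pooled, and sorted for living cells without lineage markers, with and without GFP. The proportion in which these fractions were loaded is not stated, so the labels do not say how many members came from transduced cells.

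Haematopoietic stem cells renew themselves and give rise to all blood lineages, and most of them rest outside the cell cycle. Multipotent progenitors descend from them, divide more often, and begin to express genes of lymphoid, granulocyte, megakaryocyte or erythroid fate before they commit. JAK2 passes signals from the erythropoietin and interleukin-3 families of receptors to STAT factors, and a JAK2 that is always active drives overproduction of mature myeloid cells from the stem cell compartment.

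Each combination was 1 library, so the differences described have neither replicates nor a test behind them. Sets of 4 values are given for the WT donors first, JAK2WT then JAK2V617F, and then for the KO donors in the same sequence. Ranges in parentheses are exact 95% intervals that cover counting error only, not differences between mice. The rule found 162, 228, 271 and 1240 members, with 1389686, 2076655, 3390613 and 13697875 UMIs in all and medians of 8588, 8745, 12470 and 10917 UMIs per cell. The WT JAK2WT library held the fewest members and UMIs and enters 2 of the 4 comparisons. No cell barcode was shared between members of different libraries, and 10 members shared a barcode with a passing cell of another library. Gli1 had 0 UMIs in the members of all 4 libraries, so its transcript gives no check of the genotype. Jak2 measured 36.7 (27.3 to 48.3), 35.2 (27.6 to 44.2), 26.8 (21.6 to 33) and 35.9 (32.8 to 39.2) CPM (the UMIs of a gene divided by all UMIs of the members and scaled to the same total in every library), and a 3' library does not tell mutant from normal transcripts. The GFP reporter was detected in 0, 1, 0 and 5 members. Xist, transcribed from the inactive X chromosome, measured 2093, 1155, 17.7 and 1.39 CPM, and 1 member held 63.3% and 57.9% of its UMIs in the KO libraries. Y-linked Ddx3y measured 0, 0, 52.8 and 43.8 CPM. Donor genotype and donor sex therefore cannot be told apart in any comparison of KO with WT.

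The members carried the transcripts that mark haematopoietic stem and multipotent cells and lacked those of endothelium, which shares several of them. Of the 6 defining markers, Angpt1, a secreted ligand of the Tie2 receptor, measured 291, 301, 293 and 292 CPM. The adhesion receptor gene Adgrl4 measured 252, 306, 244 and 258 CPM, and Myct1, a membrane protein gene active in stem cells and vessels, measured 83.5, 111, 85.8 and 104 CPM. These 3 levels were close to each other across the 4 libraries. The transcription factor genes Meis1, Hlf and Mecom control stem cell self-renewal. Meis1 measured 210.1, 170.5, 206 and 185 CPM, while Hlf measured 262, 115, 128 and 133 CPM and Mecom 78.4, 37.1, 35.4 and 36.7 CPM. Hlf and Mecom were highest in the WT JAK2WT library, and the other 3 libraries lay close together. To compare the libraries at 1 depth, each member was also thinned to 3000 UMIs, which left 147, 225, 271 and 1200 members, with 15, 3, 0 and 40 shallower ones set aside. At that depth 69.4%, 70.2%, 70.1% and 69.7% of members held at least 2 of the 6 markers. At least 2 of 6 general blood cell markers that the rule did not use (Ptprc, Cd34, Kit, Spn, Coro1a and Laptm5) were found in 91.2%, 91.6%, 94.5% and 93.7%. No thinned member had 2 of 6 endothelial markers (Cdh5, Kdr, Emcn, Plvap, Cldn5 and Stab2), whose summed level was 9.35, 6.74, 13.3 and 13.3 CPM, with Cldn5 at 0 in all 4 libraries. At least 2 of 6 stromal markers were found in 0.68%, 0.889%, 0.738% and 0.25%.

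**Figure D1:**
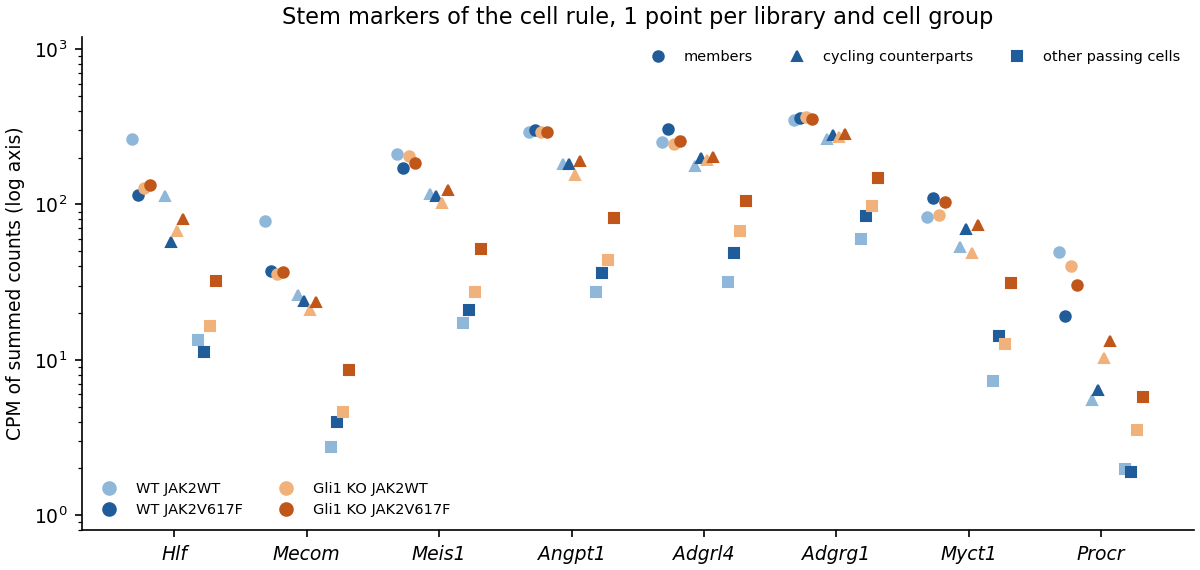
Level of the 8 stem markers of the rule, in CPM of summed counts on a logarithmic axis, 1 point for each library, in the members (circles), their cycling counterparts (triangles) and the other passing cells (squares). Every marker is highest in the members, and Hlf and Mecom stand out in the WT JAK2WT library at 262 and 78.4 CPM. Members and cycling counterparts were both selected on these markers and differ in depth, so the gap between them is only a description.

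Within the members, the long-term stem cell transcripts Fgd5, Slamf1 and Vwf were rarer than Cd34 and Cd48 of multipotent progenitors. Among genes tied to the deepest stem cells, Fgd5 was found in 2.04%, 0.889%, 1.11% and 0.667% of thinned members, Slamf1 (CD150) in 5.44%, 3.11%, 1.11% and 1.25% and Vwf in 2.04%, 1.33%, 1.11% and 0.167%. Cd34, which appears as stem cells become multipotent progenitors, was found in 45.6%, 55.6%, 68.3% and 70%, and Cd48, a surface protein of multipotent progenitors, in 25.2%, 49.8%, 37.3% and 47.6%. At least 2 of 20 listed long-term stem cell genes were found in 51.7%, 44.9%, 49.8% and 50.4% of thinned members. At least 2 of 18 genes listed for multipotent and lymphoid-primed progenitors were found in 83.0%, 81.3%, 87.5% and 88.5%. Flt3, another gene of multipotent progenitors, was found less often than Cd34 or Cd48 in every library, as given below. The single genes differ in level and the lists in length and level, so these shares do not give the proportion of either cell. The rule takes in a mixture. Cells just inside the threshold on stem transcripts, with exactly 3 of the 8, numbered 34, 45, 41 and 159, and cells just outside with 2 numbered 98, 42, 49 and 155. With granule genes at 0.4 to 0.5% of UMIs there were 16, 25, 11 and 61 members, and at 0.5 to 0.6% there were 6, 8, 8 and 47 cells that met the other conditions. Members with 2 UMIs of the mitosis genes numbered 37, 38, 52 and 253, and cells with 3 UMIs, which were left out, numbered 33, 32, 29 and 150.

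Non-cycling stem and multipotent progenitors made up 2.03% (1.73 to 2.36) of passing cells in the WT JAK2WT library and 6.33% (5.56 to 7.17) in the WT JAK2V617F library. In the KO libraries they made up 6.78% (6.02 to 7.60) of JAK2WT cells and 19.1% (18.2 to 20.1) of JAK2V617F cells. The share with JAK2V617F was 3.12 times that with JAK2WT in WT (2.56 to 3.8) and 2.82 times in KO (2.49 to 3.20). The share in KO was 3.34 times that in WT with JAK2WT (2.76 to 4.04) and 3.02 times with JAK2V617F (2.64 to 3.46). All 4 intervals lie above 1 for counting error, but the sort and the unstated loading proportion can set a share, and the part of either was not tested. Markers of another cell type, at least 3 of a list, were carried by 49, 50, 83 and 489 members, in the KO JAK2V617F library mostly neutrophil markers (368 members). Without these members the shares were 1.41%, 4.94%, 4.70% and 11.6%, and with no mitosis UMI allowed they were 0.764%, 3.44%, 3.50% and 8.78%. Passing cells had medians of 4187, 13150, 17277 and 13785 UMIs, and the rule needs at least 3 stem transcripts to be detected. With cells thinned to 3000 UMIs before the rule and shallower ones left out, the shares were 2.88%, 5.93%, 7.51% and 18.0%. The WT shares then lay closer together, and the part of depth was not tested. Shares are of 1 whole, so they also move with every other cell type in the library.

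Cycling cells that met the other conditions were counted beside them. They numbered 253, 354, 498 and 1409, or 3.17%, 9.83%, 12.5% and 21.7% of passing cells. Their share with JAK2V617F was 3.10 times that with JAK2WT in WT (2.65 to 3.63) and 1.74 times in KO (1.59 to 1.92). Non-cycling cells were 39.0% (34.3 to 43.9), 39.2% (35.2 to 43.3), 35.2% (31.9 to 38.7) and 46.8% (44.9 to 48.7) of all stem-marked cells. The KO JAK2V617F library had the highest non-cycling share, and its interval did not overlap the other 3. Cells of greater depth more often pass 3 mitosis UMIs, and cycling cells had medians of 14948, 15293, 23240 and 18963 UMIs. When every passing cell was thinned to 3000 UMIs before the rule was applied, the non-cycling share was 74.6%, 73.9%, 71.3% and 78.9%, again highest in that library. These shares rest on 138, 187, 236 and 1034 non-cycling and 47, 66, 95 and 276 cycling cells. No interval was taken for them, so the gap between intervals is shown only without thinning.

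**Figure D2:**
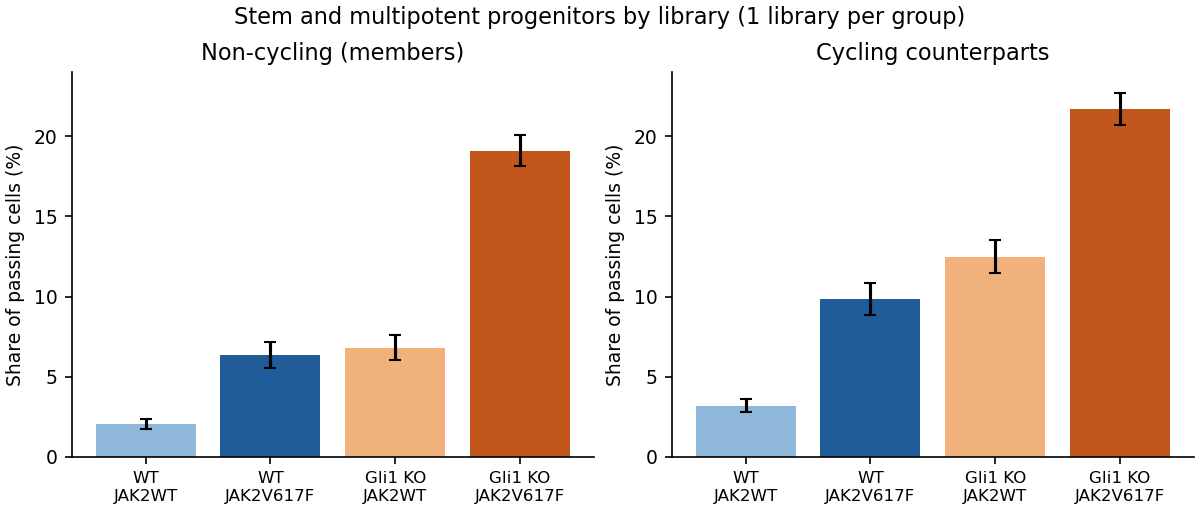
Percent of passing cells in each of the 4 libraries that were non-cycling members (left) or their cycling counterparts (right), as bars with exact 95% intervals for counting error. Both shares are lowest in the WT JAK2WT library and highest in the KO JAK2V617F library, and the non-cycling share runs from 2.03% to 19.1%.

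Beyond the genes of the rule, members shared a set of transcripts that set them apart from the other passing cells. This is a description, since the cells were selected on stem transcripts, and each value is the mean over the 4 libraries of the log2 ratio of CPM after 10 CPM was added to both sides. Ctla2a, a cysteine protease inhibitor gene, led with 2.59 (range 1.81 to 2.86), followed by Rgs1, a brake on G protein signalling from chemokine receptors, at 2.33 (range 1.66 to 2.65). The vesicular amine transporter gene Slc18a2 stood at 2.05 (range 1.39 to 2.69), and Apoe at 1.97 (range 1.14 to 2.65). Gata2, a transcription factor that stem cells need for survival, stood at 1.93 (range 1.07 to 2.45). Sox4, a transcription factor of immature cells, stood at 1.70 (range 1.42 to 2.23), and Ifitm1, an interferon-induced membrane protein gene, at 1.83 (range 0.47 to 3.23). All of these leading genes were above the other cells in every library. The lowest ratios belonged to neutrophil genes, with Ngp at -4.34 (range -6.46 to -2.46) and S100a9 at -4.24 (range -6.35 to -2.66), and to the mitosis gene Ube2c at -3.36 (range -3.63 to -3.05).

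Against their cycling counterparts, which differ by rule only in the 4 mitosis genes, 14 of 17 tested genes of the immediate early and stress list were at least 1.5-fold higher in the non-cycling members by the mean over libraries, and none was lower. The list's median was 0.96, against 0.015 over all 5528 genes tested, of which 2.21% were higher and 5.41% lower, 7.62% in all. These counts too are a description, since mitosis transcripts chose the cells. Fos stood at 1.22 (range 0.86 to 1.82), Fosb at 1.16 (range 0.82 to 1.67), Junb at 1.15 (range 0.93 to 1.61), Jun at 1.06 (range 0.87 to 1.40) and Egr1 at 1.09 (range 0.89 to 1.58). These genes encode transcription factors that are induced within minutes of a stimulus. Txnip, a thioredoxin inhibitor linked to stem cell rest, stood at 1.11 (range 0.88 to 1.34), and Ltb, a TNF family ligand gene, at 1.46 (range 1.13 to 1.70). Gzmb, a cytotoxic granule protease, led this comparison at 2.05 (range 1.56 to 2.63), with a mean level of 60.9 CPM in members and 6.54 CPM in cycling counterparts. It was found in 3, 12, 10 and 59 members, and 1 member held 39.2% of its UMIs in the WT JAK2V617F library and 37.6% in the KO JAK2WT library. The lowest ratios were those of Ube2c at -3.68 (range -4.28 to -3.15), the histone gene Hist1h1b at -3.28 (range -3.64 to -2.88), the chromosome segregation gene Birc5 at -3.26 (range -3.75 to -2.89) and the replication factor Pclaf at -3.14 (range -3.75 to -2.74). Replication transcripts were lower in the members but not absent, with 12 of 19 tested S phase genes lower and none higher, and mean levels of 67.2 CPM for Hist1h1b and 51.3 CPM for Pclaf.

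Lineage transcripts were spread unevenly among the members. To read the share of thinned members with a UMI against free RNA in the droplets, the same share was taken in plasma cells with at least 1% of UMIs from Jchain, which should lack these genes. They numbered 273, 25, 354 and 40 with medians of 13689, 14419, 31890 and 30589 UMIs. In every library they were deeper than the members, and thinning a deeper cell keeps less of a fixed amount of free RNA. The plasma cell shares can therefore understate the background of the members, most in the KO libraries. Flt3, the cytokine receptor of multipotent and lymphoid-primed progenitors, was found in 17.7% (11.9 to 24.8), 10.2% (6.59 to 14.9), 20.3% (15.7 to 25.6) and 12.5% (10.7 to 14.5) of members and in 0.366%, 0%, 0% and 0% of plasma cells. Without thinning it was found in 35.2%, 22.8%, 44.6% and 34.8% of members. Dntt, which encodes the terminal transferase of early lymphoid cells, was found in 19.7% (13.6 to 27.1), 4.89% (2.47 to 8.58), 7.01% (4.27 to 10.7) and 3.17% (2.25 to 4.32) of members and 4.76%, 0%, 0% and 0% of plasma cells. Satb1, a chromatin organiser needed for lymphoid priming, was found in 25.2%, 9.78%, 14.8% and 12.2% of members and 5.13%, 0%, 2.82% and 7.5% of plasma cells. Dntt and Satb1 were most often seen in the WT JAK2WT library.

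Megakaryocyte transcripts were found in some members, and the genes differed in which library held them most often. Pf4, a platelet chemokine gene, was found in 10.9%, 10.2%, 8.86% and 8.42% of thinned members, most often in the WT JAK2WT library. Itga2b (CD41) was found in 4.08% (1.51 to 8.67), 12.9% (8.8 to 18), 13.7% (9.8 to 18.3) and 14.3% (12.4 to 16.4) of thinned members and 0.733%, 0%, 0% and 0% of plasma cells, least often in the WT JAK2WT library. Members with a UMI of both Flt3 and Itga2b numbered 0 of 147, 1 of 225, 2 of 271 and 18 of 1200, and both Flt3 and Procr, the stem cell protein C receptor, were found in 0, 1, 6 and 10. Flt3 and Mecom were found together in 0, 3, 5 and 14 members. In sparse counts such joint detections are few whatever the cells hold, so they are given as numbers only. Erythroid Klf1 and Epor were close to absent, in 0%, 1.78%, 2.21% and 0.833% and 0%, 0.444%, 1.85% and 0.417%. Other genes listed for erythroid priming were found more often. At least 2 of the 18 on that list were found in 34.7%, 48.9%, 43.2% and 45.25% of thinned members.

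For some transcripts of committed cells the background was close to or above the share in members in at least 1 library, where they are not read as expression. S100a8 was found in 34.7%, 20%, 17% and 33.3% of members and 37%, 40%, 11% and 37.5% of plasma cells, and Ms4a3, a gene of granulocyte and monocyte progenitors, in 12.2%, 31.1%, 14% and 21.6% and 16.5%, 12%, 9.32% and 15%. For Ms4a3 the share in members exceeded the background most in the WT JAK2V617F library. For Irf8, the factor of monocyte and dendritic fate, the shares were 19.7%, 4%, 9.96% and 3.83% and 15.8%, 0%, 10.2% and 0%, and for H2-Aa, an MHC class II chain, 24.5%, 9.33%, 28% and 14.6% and 16.1%, 8%, 15.8% and 15%. By contrast Ifitm1 was found in 58.5%, 84.9%, 81.2% and 86.2% of members and 3.66%, 16%, 2.26% and 10% of plasma cells.

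In WT donors, members with JAK2V617F had less of the lymphoid-primed and MHC class II transcripts than members with JAK2WT and more of Ifitm1, Cd48, Spi1 and the glycolytic enzymes. A gene was called higher or lower when its log2 ratio, with 10 CPM added to both sides, was at least 1.5-fold, among genes with 25 CPM or more in either library. The 5682 genes tested included 489 called higher (8.61%) and 382 called lower (6.72%), or 15.3% in all, with a median log2 ratio of 0.081. For 158 of the 871 called genes the counting interval lay wholly past 1.5-fold. In the cycling counterparts of the same libraries, 569 of 5536 genes were called.

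Of the 18 genes listed for multipotent and lymphoid-primed progenitors, 13 were tested, 7 were lower and 1 was higher, with a median of -0.70. Dntt measured 229.5 (205 to 256), 51.5 (42.2 to 62.3), 108 (96.9 to 119) and 13.1 (11.3 to 15.2) CPM. It was lower with JAK2V617F in both genotypes, by log2 ratios of -1.96 in WT and -2.35 in KO. Satb1 measured 135 (117 to 156), 37.1 (29.3 to 46.3), 68.7 (60.2 to 78.1) and 46.3 (42.8 to 50) CPM, and its ratio in WT was -1.63. Notch1, the receptor that directs progenitors to the T cell fate, measured 51.1 (39.9 to 64.4), 6.26 (3.33 to 10.7), 26.2 (21.1 to 32.3) and 10.8 (9.13 to 12.7) CPM, with a ratio of -1.91. Satb1 and Notch1 had their highest level in the WT JAK2WT library and their next highest in the KO JAK2WT library.

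Flt3 measured 100.02 (84.1 to 118), 38.5 (30.5 to 47.9), 76.7 (67.6 to 86.6) and 50.7 (47 to 54.6) CPM, a ratio of -1.18 in WT, which was -0.52 when cells were thinned before the rule and so under the 1.5-fold limit. Mef2c, a factor of lymphoid and myeloid choice, measured 355, 190.2, 279 and 203 CPM, and Tcf4, needed for plasmacytoid dendritic cells, 189, 104, 134 and 109 CPM. Both were lower with JAK2V617F in WT, at -0.87 and -0.81. The interleukin-7 receptor gene Il7r was also lower, at -0.70. Cd48 went the other way, with 119 (102 to 139), 277 (255 to 301), 211 (195 to 227) and 253 (245 to 262) CPM and a ratio of 1.15. In the cycling counterparts the ratios were -2.22 for Dntt, -1.53 for Satb1, -1.92 for Notch1, -1.30 for Flt3 and 0.56 for Cd48, of the same sign as in the members.

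**Figure D3:**
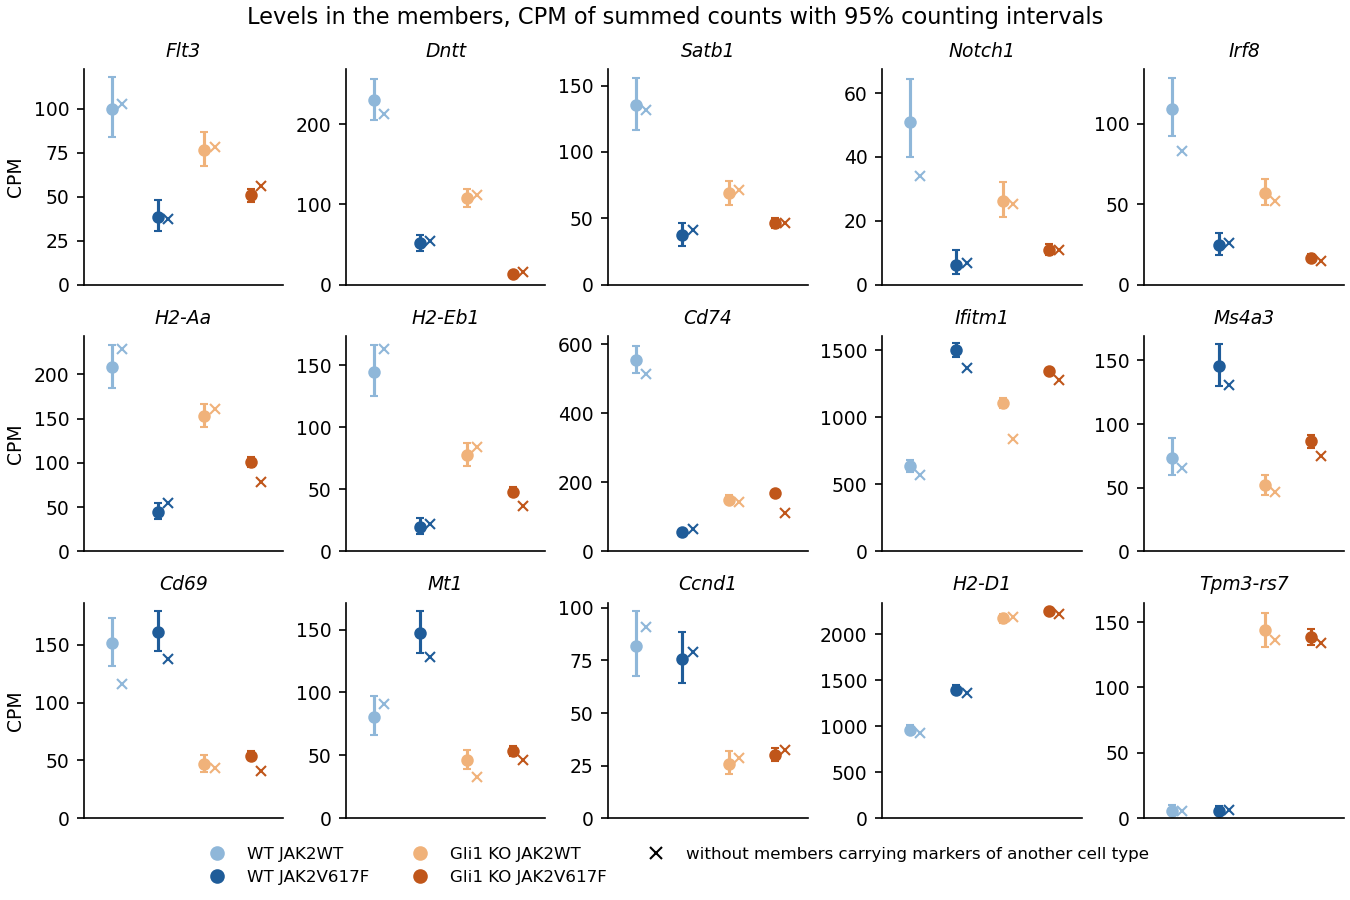
Levels of 15 genes in the members of each library, in CPM of summed counts on linear axes, as points with exact 95% intervals for counting error and crosses for the level without members that carry markers of another cell type. Dntt, Satb1, Notch1, Irf8 and the MHC class II genes are highest in the WT JAK2WT library, and Cd69 and Ccnd1 are lower and H2-D1 and Tpm3-rs7 higher in both KO libraries.

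MHC class II genes encode the chains that present peptides to helper T cells. Of 10 listed, 8 were tested and 4 were lower with JAK2V617F in WT, with a list median of -0.78. Cd74, the invariant chain that guides class II molecules, measured 556 (517 to 596), 54.9 (45.3 to 65.9), 149 (136 to 163) and 168 (161 to 175) CPM, and H2-Aa 208 (185 to 233), 44.8 (36.1 to 54.9), 153 (140.2 to 167) and 101 (95.8 to 107) CPM. H2-Eb1 measured 145, 19.7, 77.6 and 48.1 CPM and H2-Ab1 186, 84.8, 99.1 and 66.2 CPM. The ratios in WT were -3.12 for Cd74, -2.38 for H2-Eb1, -1.99 for H2-Aa and -1.05 for H2-Ab1. A single member held 34.2%, 40.3% and 40.8% of the Cd74, H2-Eb1 and H2-Aa UMIs in the WT JAK2WT library. Without each gene's highest member in each library the ratios were -2.69, -1.79 and -1.43, still past 1.5-fold, while H2-Ab1 stood at -0.50 and was not. The WT JAK2WT members also held more plasma cell and B lineage transcripts, summed over 6 markers each at 1495, 87.2, 228 and 97.8 CPM and 122, 40.9, 55.4 and 48.1 CPM. Without members that carried 3 or more markers of another cell type, Cd74 stood at -2.83 and H2-Aa at -1.89. For H2-Aa the plasma cell background was close to the share in members in both JAK2V617F libraries, as given above. The part of free RNA in the class II ratios was not tested. The class I genes, 12 tested, had 1 called lower and a median of 0.11.

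Class II genes share a promoter layout that ends in a Y box, a CCAAT motif close to the start. CCAAT was searched on both strands of the 250 bases before each gene's start in RefSeq (GRCm38.p6, the assembly of the files' mm10) and was found in 33.8% of 32851 promoters. Of 9 class II list genes looked for, without Cd74, 7 had a promoter there, and all 7 held the motif before at least 1 start. H2-DMa held it only before the second of its 2 starts, at position -198, which is not close to the start. This count is by gene and the 33.8% is by promoter, so the 2 are not alike. The STAT palindrome TTCNNNGAA was found in 7.02% of all promoters. The last 180 bases before the start are shown for 2 class II genes that were lower in WT, for the class I gene H2-D1, which holds the same motif and was not lower, and for Irf8, described below, which holds both motifs before the first of its 2 starts in the table and neither before the second, which is not shown. Each reads 5′ to 3′ on the gene's strand, with matches to CCAAT, its reverse complement ATTGG or TTCNNNGAA in capitals. A match is a description and no evidence that a factor binds.
H2-Aa, chr17:34287824-34288003, minus strand: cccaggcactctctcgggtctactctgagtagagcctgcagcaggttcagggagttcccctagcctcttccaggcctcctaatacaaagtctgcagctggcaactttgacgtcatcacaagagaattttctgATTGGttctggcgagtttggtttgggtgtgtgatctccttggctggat
H2-Eb1, chr17:34305687-34305866, plus strand: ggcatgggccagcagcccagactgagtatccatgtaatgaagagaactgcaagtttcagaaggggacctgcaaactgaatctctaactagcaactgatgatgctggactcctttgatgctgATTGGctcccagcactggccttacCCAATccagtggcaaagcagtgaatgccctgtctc
H2-D1, chr17:35262914-35263093, plus strand: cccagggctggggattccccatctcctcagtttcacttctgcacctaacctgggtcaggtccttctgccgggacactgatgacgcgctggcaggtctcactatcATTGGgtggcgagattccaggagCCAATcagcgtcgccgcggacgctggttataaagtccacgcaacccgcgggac
Irf8, chr8:120736178-120736357, plus strand: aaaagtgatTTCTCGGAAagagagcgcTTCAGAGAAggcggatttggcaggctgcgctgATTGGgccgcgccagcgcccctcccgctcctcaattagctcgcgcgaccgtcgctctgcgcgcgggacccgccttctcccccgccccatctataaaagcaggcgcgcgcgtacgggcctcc

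Genes of granulocyte and monocyte fate did not move in 1 direction. Of 10 tested, 2 were higher and 3 lower in WT, with a median of -0.028. Spi1, the PU.1 factor of myeloid fate, measured 89.9 (74.9 to 107), 195 (176 to 215), 179 (165 to 194) and 180.2 (173 to 188) CPM and was higher with JAK2V617F in WT, at 1.04. Ms4a3 measured 73.4, 146, 51.9 and 86.4 CPM, with a ratio of 0.90. Irf8 measured 109 (92.7 to 128), 24.6 (18.3 to 32.3), 57.2 (49.4 to 65.9) and 16.6 (14.6 to 19) CPM and was lower, at -1.79, and the monocyte surface gene Ly6c2 was lower at -2.62. Spi1 was lowest and Irf8 highest in the WT JAK2WT library. In that library the plasma cell background of Irf8 and Ms4a3 was close to or above the share in members, as given above. The part of this background in their ratios was not tested. Cycling counterparts had ratios of 0.39 for Spi1, 1.70 for Ms4a3 and -2.79 for Irf8.

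Some genes linked to long-term stem cells were lower in WT members with JAK2V617F. Of the rule's own markers, which are given here as a description, Hlf had a ratio of -1.12, Procr of -1.03 and Mecom of -0.91. Outside the rule, 7 genes linked to long-term stem cells were tested and 3 were lower, with a median of -0.42. Mllt3, a factor that maintains stem cells in culture, measured 64, 35.2, 30.1 and 29.6 CPM, and Tgm2, a transglutaminase gene, 32.4, 5.3, 10.3 and 6.57 CPM, with ratios of -0.71 and -1.47. In the cycling counterparts the ratios were 0.093 for Mllt3 and 0.085 for Tgm2.

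Transcription factor genes of stem cells and early lineages, 18 tested, had 3 higher and none lower, at a median of -0.023. Gfi1b, needed for megakaryocyte and erythroid cells, measured 10.8 (6.04 to 17.8), 40.9 (32.7 to 50.6), 30.1 (24.5 to 36.5) and 25.6 (23 to 28.5) CPM and had a ratio of 1.29. Erg and Lyl1, which help maintain stem cells, measured 27.3, 49.6, 46.6 and 48.9 and 94.3, 147, 169.9 and 143 CPM and had ratios of 0.67 and 0.59, with Lyl1 at 0.41 when thinned first. Of 9 megakaryocyte genes, Itga2b (25.2, 51.5, 46.9 and 51.8 CPM) and Rap1b were higher, at 0.81 and 0.73. These factors and Itga2b were lowest in the WT JAK2WT library, and the other 3 libraries lay closer together. Of 6 tested erythroid priming genes, 3 were higher and none lower, at a median of 0.63. These were Car1 at 2.38, Apoe at 0.81 and Mt1 at 0.80. Without members of mixed markers Apoe stood at 0.35 and Mt1 at 0.46, under 1.5-fold.

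Genes near the JAK2 signal gave a mixed picture. Of 21 listed targets of JAK and STAT signalling, 9 were tested, 2 were higher and 1 lower in WT. Myc measured 122, 202, 199.96 and 210.3 CPM and Ccnd3, a D cyclin, 89.9, 149.8, 122 and 147 CPM, and both had ratios of 0.68, which with no mitosis UMI allowed were 0.30 and 0.57, under 1.5-fold. Ccnd2 measured 329 (299 to 360.4), 176 (158 to 195), 200.3 (185 to 216) and 158 (151 to 165) CPM and was lower, at -0.87. Pim1, a kinase induced by STAT5, measured 272 (245 to 301), 370.3 (345 to 397), 379.6 (359 to 401) and 425 (414 to 436) CPM, with a ratio of 0.43 that did not reach 1.5-fold. Cish and Socs2, feedback inhibitors of the pathway, were found in 8.16%, 4.89%, 4.8% and 3.83% and 9.52%, 6.67%, 2.95% and 5.33% of thinned members. Neither feedback gene was more often found with JAK2V617F in WT.

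Receptors of the same pathway were split. Of 11 tested, Ifngr2, an interferon gamma receptor chain, Csf2rb, the shared beta chain for interleukin-3 and GM-CSF, and Il3ra were higher, at 0.94, 0.80 and 0.79. Flt3 and Kit were among those lower. Kit, the stem cell factor receptor, measured 234 (209 to 261), 139.6 (124 to 157), 169 (155 to 183) and 143 (136 to 149) CPM, with a ratio of -0.70. Thinned first, Il3ra stood at 0.40 and Kit at -0.57, and without members of mixed markers Csf2rb stood at 0.48, all under 1.5-fold.

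Ifitm1 was among the most abundant genes that differed. It measured 637 (596 to 680.2), 1504 (1452 to 1558), 1105 (1070 to 1141) and 1349 (1329 to 1368) CPM, and the WT JAK2WT library stood below the other 3. Its ratio was 1.23 in the members and 2.23 in their cycling counterparts. Its relative Ifitm2 measured 674, 1024, 842 and 921 CPM (0.60) and Ifitm3 766, 712, 595 and 694 CPM (-0.10). The classical interferon-stimulated genes did not follow, since of 17 tested none was higher and 2 were lower, Ifi27l2a at -1.22 and Bst2 at -0.63.

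Glycolytic enzymes were higher together. Of 15 tested, 8 were higher and 1 lower with JAK2V617F in WT, at a median of 0.65. Ldha, lactate dehydrogenase, measured 318 (289 to 349), 669.8 (635 to 706), 509.6 (486 to 534) and 628 (615 to 642) CPM and Pkm, pyruvate kinase, 239, 453, 406 and 452 CPM. Gapdh, glyceraldehyde phosphate dehydrogenase, measured 699, 1155, 982 and 1076 CPM. The ratios were 1.05, 0.89 and 0.72, and those in the cycling counterparts 1.00, 0.89 and 0.55. Pkm stood at 0.51, under 1.5-fold, when thinned first. Hk2, a hexokinase gene, was lower, at -0.74, but stood at -0.10 when thinned first. None of 19 tested genes of oxidative phosphorylation reached 1.5-fold, at a median of 0.15, while the citric acid cycle enzyme Idh2 was higher, at 1.01.

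Replication genes leaned the same way. Of 18 tested S phase genes, 4 were higher and none lower, at a median of 0.46, with the helicase subunit Mcm3 at 124, 232, 192 and 204 CPM and a ratio of 0.85. Of 6 G2 and mitosis genes outside the rule none reached 1.5-fold. Tgfb1, the profibrotic growth factor, measured 173 (152 to 197), 302 (279 to 327), 247 (231 to 265) and 282 (273 to 291) CPM and was higher, at 0.77. Adhesion and homing receptors, 11 tested, had 4 lower and 1 higher, with Cd44, the hyaluronan receptor, at -0.60 and the integrin gene Itgal at -0.71.

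The genes with the most extreme ratios in WT often rested on few cells. Among the 10 highest by the ranking rule, Cma1, Prg4, Cpa3, Gzmb, Apod and Fcer1a each had most or a large part of their UMIs in 1 member of the higher library, from 39.2% for Gzmb to 98.1% for Prg4, and 5 of the 10 were higher also without each gene's highest member and without members carrying markers of other types. Cma1, a mast cell chymase, stood at 2.58 with 1 member holding 71.3% of its UMIs, and at 0 without members of mixed markers. The mast cell list had 7 of 8 tested genes higher in WT at a median of 1.51, and the summed level of 6 mast cell and basophil markers was 294, 892, 359 and 375 CPM. Ssbp4, Ffar2 and Samd1 were spread over many members. Ffar2, a receptor for short fatty acids, measured 25.9, 76.6, 39.8 and 70 CPM (1.27). Of the 10 lowest, 9 were lower also without both, the exception being Mzb1, a plasma cell gene, at -0.49. Cpa3, Fcer1a and Mzb1 are themselves markers used to leave members out, so their levels without mixed members fall by construction.

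**Figure D4:**
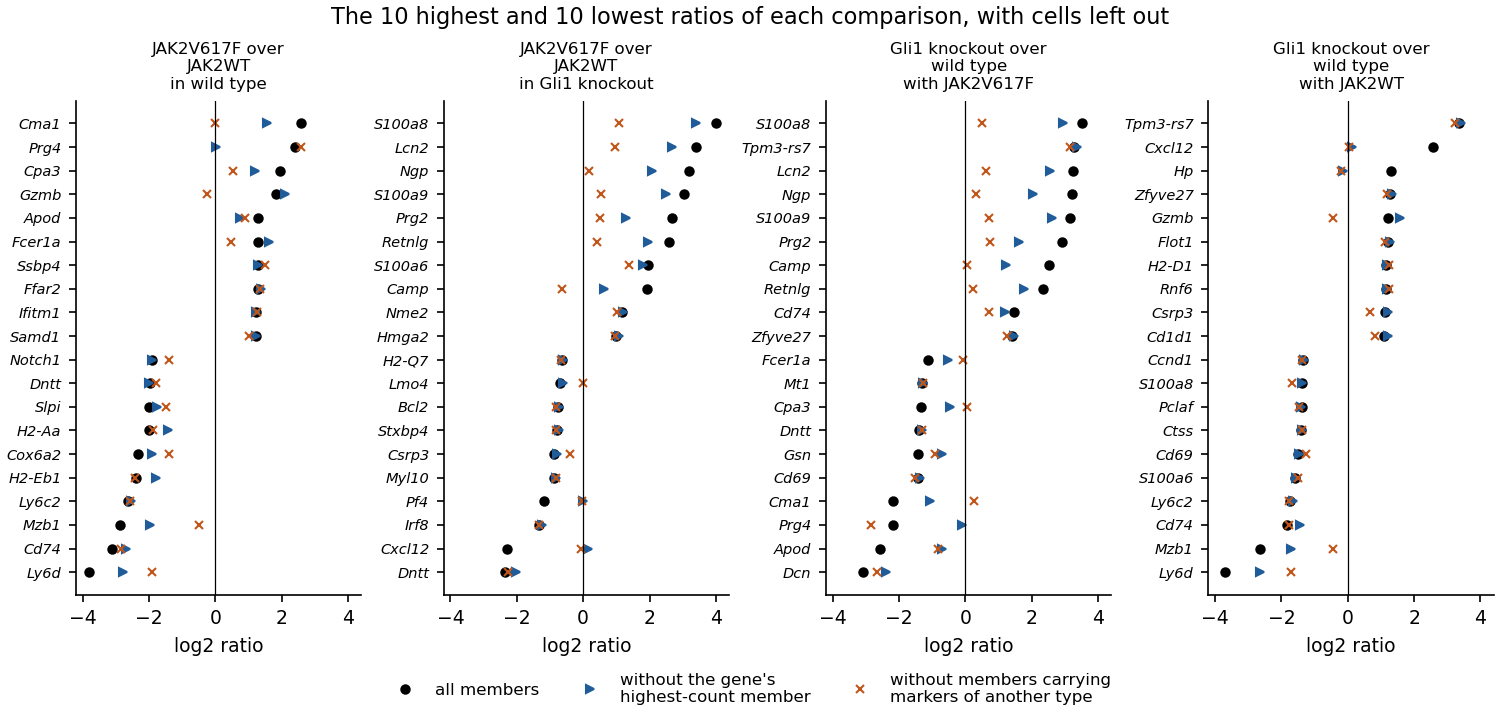
Log2 ratios of the 10 highest and 10 lowest genes of each comparison over all members (black circles), without the gene's highest-count member of each library (blue triangles) and without members carrying markers of another cell type (red crosses). Dntt, Ifitm1 and Tpm3-rs7 keep their place, while Prg4, Cxcl12 and Pf4 fall near 0 without 1 member and the neutrophil genes come much closer to 0 without mixed members. Most of these neutrophil genes are markers by which mixed members were left out, so their levels fall by construction.

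In KO donors, fewer genes were called between members with JAK2V617F and members with JAK2WT. Of 5451 genes tested, 31 were higher (0.569%) and 29 lower (0.532%), or 1.1% in all, with a median log2 ratio of 0.029. Whether the 2 genotypes differ in this was not tested, and the KO libraries hold more members and UMIs, which narrows counting error. For 34 of the 60 the counting interval lay wholly past 1.5-fold. The cycling counterparts had 151 of 5387 genes called.

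Dntt led the genes that were lower, with the ratio of -2.35 given above, which stood at -2.03 without its highest member, at -3.15 in the cycling counterparts and at -0.60, just past the limit, when cells were thinned to 3000 UMIs before the rule. Notch1 was the only other lymphoid-primed gene that was lower among 12 tested, at -0.80, and the list's median was -0.22. Flt3 and Satb1 had ratios of -0.51 and -0.48 and did not reach 1.5-fold. Irf8 was lower at -1.33, but stood at 0.015 when cells were thinned before the rule. Of 7 class II genes, H2-Eb1 was lower at -0.59 and Cd74, H2-Aa and H2-Ab1 had ratios of 0.16, -0.55 and -0.52. Bcl2, the survival gene, measured 155 (135 to 178), 103 (89.3 to 117), 120.04 (109 to 132) and 66.8 (62.5 to 71.3) CPM and was lower in KO, at -0.76, though it stood at -0.22 when cells were thinned first.

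Several groups with called genes in WT had no called gene in KO, which is near the 1.1% of all tested genes called there and no result about these groups. None of 15 glycolysis genes reached 1.5-fold, at a median of 0.043, and Ldha had a ratio of 0.30. None of 18 S phase genes, 17 stem and progenitor transcription factors, 11 cytokine receptors, 8 JAK and STAT targets or 7 long-term stem cell genes did so. Ifitm1 had a ratio of 0.29, Cd48 of 0.25 and Spi1 of 0.0093. For Ldha, Ifitm1, Cd48 and Spi1 the KO JAK2WT level given above lay between that of the WT JAK2WT library and those of both JAK2V617F libraries. Only for Spi1 was it near the JAK2V617F levels. The difference between the genotypes' ratios was not tested.

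The genes with the highest ratios in KO were mostly neutrophil genes. Of 11 tested genes of the S100 and neutrophil list, 8 were higher with JAK2V617F, at a median of 1.96, and without members of mixed markers 3 of 6 tested, at 0.66. S100a8, a calcium-binding alarmin, measured 148 (129 to 169.9), 74.6 (63.4 to 87.4), 50.4 (43.2 to 58.6) and 949 (933 to 965) CPM, and S100a9, its partner, 112, 85.7, 93.8 and 839.9 CPM. Lcn2, lipocalin-2, measured 5.04, 5.3, 3.83 and 136 CPM and Ngp, neutrophilic granule protein, 6.48, 14.4, 14.5 and 215 CPM. A single member of the KO JAK2V617F library held 34.7% of the S100a8, 43.8% of the Lcn2 and 60.1% of the Ngp UMIs. All 6 neutrophil markers moved with this result, at a summed level of 293, 192, 188 and 2231 CPM, none of them at 0 in that library, and 2 or more were found in 17%, 9.33%, 10.3% and 21.4% of thinned members. Without members that held markers of another cell type, the ratios were 1.09 for S100a8, 0.97 for Lcn2 and 0.17 for Ngp. S100a8, S100a9, Ngp, Camp, Ltf and Retnlg are themselves the neutrophil markers used to leave members out. Their levels then fall by construction, so the lower ratios are no check. In every library but KO JAK2WT the plasma cell background of S100a8 was close to or above the share in members, as given above. The part of this background in its ratios was not tested.

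S100a6, another calcium-binding protein gene, was less tied to single cells. It measured 178 (156 to 201), 272 (249.6 to 295), 51.9 (44.5 to 60.2) and 231 (223 to 239) CPM and was higher in KO with JAK2V617F, at 1.96, and at 1.37 without members of mixed markers. Nme2, a nucleoside diphosphate kinase, measured 38.1 (28.6 to 49.9), 51.5 (42.2 to 62.3), 24.8 (19.8 to 30.7) and 68.6 (64.3 to 73.2) CPM and had a ratio of 1.18, with 0.532% of UMIs in its highest member. Nme2 lies next to the near-identical Nme1 (361, 391, 352 and 419.8 CPM), and counting can split their reads, so its value is uncertain. Pf4 was lower at -1.18, with 64.3% of its UMIs in 1 member, and stood at -0.0019 without it.

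**Figure D5:**
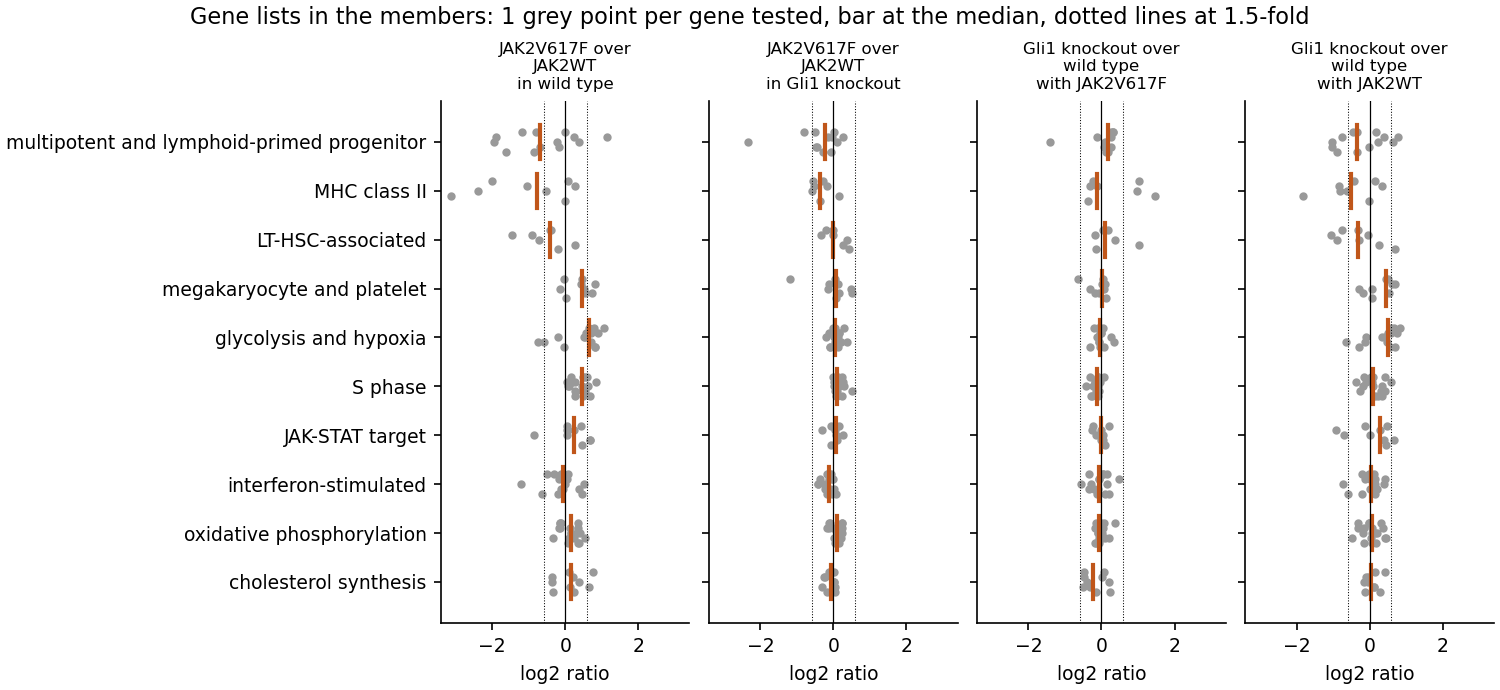
Log2 ratios of the tested genes of 10 lists in the members, 1 grey point for each gene with a bar at the list's median and dotted lines at 1.5-fold, in the 4 comparisons. For JAK2V617F against JAK2WT in WT the lymphoid-primed and MHC class II medians lie lowest (-0.70 and -0.78) and glycolysis highest (0.65), while in KO most points lie between the dotted lines.

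A small set of genes was called in the same direction in both genotypes, in comparisons that share no library. Of the 5235 genes tested in both, 449 were higher in WT and 23 in KO, and 8 were higher in both, 1.78% and 34.8% of each set. Among lower genes, 258 in WT and 26 in KO had 16 in common, 6.20% and 61.5%. Over all genes tested in WT, 8.61% were called higher and 6.72% lower. Opposite calls were 1 gene higher in WT and lower in KO, and 2 genes lower in WT and higher in KO. Whether the overlap exceeds that of unrelated calls was not tested. Those eligible to be named by the ranking rule were Ffar2, Hmga2, Ms4a3, Pglyrp1, Plscr1, Serpina3g and Vldlr among the higher, and Aplp2, Clec12a, Dntt, H2-Eb1, Iigp1, Irf8, Lars2, Myl10, Notch1 and Zbtb20 among the lower. For Ms4a3 and Irf8 the plasma cell background was close to or above the share in members in some libraries, as given above. Hmga2, a chromatin protein of fetal stem cells whose increase is known in myelofibrosis, measured 15.8 (9.92 to 24), 42.9 (34.4 to 52.7), 22.7 (17.9 to 28.4) and 55.6 (51.7 to 59.6) CPM, with ratios of 1.03 in WT and 1.00 in KO, and of 0.94 and 0.74 in the cycling counterparts.

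Among the other shared genes, Plscr1, an interferon-induced scramblase, measured 33.1, 80.9, 41.3 and 76.6 CPM, with ratios of 1.08 and 0.76. Vldlr, a lipoprotein receptor gene, measured 18.7, 41.9, 16.8 and 42.9 CPM (0.85 and 0.98). Serpina3g, a protease inhibitor gene, measured 99.3, 202, 122 and 206 CPM (0.96 and 0.72). All 3 lay higher in both JAK2V617F libraries than in either JAK2WT library, as Hmga2 did. Zbtb20, a transcriptional repressor gene, measured 149, 83.8, 143 and 91.5 CPM (-0.76 and -0.59) and Clec12a, a myeloid lectin gene, 79.9, 27, 43.6 and 23.9 CPM (-1.28 and -0.66). These 2 lay lower in both JAK2V617F libraries, with no overlap of the single values.

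Between the genotypes with JAK2V617F, KO members had less Dntt, Cd69, Ccnd1 and Mt1 than WT members and more H2-D1. Neutrophil transcripts were higher over all members, and their ratios without members of mixed markers are given below. Of 5442 genes tested, 41 were higher in KO (0.753%) and 49 lower (0.9%), or 1.65% in all, at a median of 0.0089. The counting interval lay wholly past 1.5-fold for 61 of the 90, and 94 of 5341 genes were called in the cycling counterparts. Cd69, an early activation protein that holds cells in tissue, measured 152 (132 to 174), 161 (145 to 179.6), 46.9 (39.9 to 54.8) and 53.7 (49.9 to 57.8) CPM and had a ratio of -1.43. Ccnd1, a D cyclin, measured 82 (67.7 to 98.5), 75.6 (64.2 to 88.4), 26 (20.8 to 32) and 30.2 (27.4 to 33.3) CPM (-1.09), and the metallothionein gene Mt1 80.6 (66.4 to 97), 147 (131 to 165), 46.3 (39.3 to 54.1) and 53.2 (49.4 to 57.2) CPM (-1.32). Dntt had a ratio of -1.41.

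Cd69 and Ccnd1 were lower in both KO libraries than in both WT libraries. With JAK2WT their ratios of KO to WT were -1.51 and -1.36, and Mt1 stood at -0.69. In the cycling counterparts Cd69 stood at -0.40 with JAK2V617F and -0.40 with JAK2WT, and Ccnd1 at -0.86 and -1.07. H2-D1, a class I chain, measured 964 (913 to 1017), 1397 (1347 to 1449), 2176 (2126 to 2226) and 2249 (2224 to 2274) CPM and was higher in KO with either transduction, at 0.68 and 1.17. Class I genes other than H2-D1 did not reach 1.5-fold with JAK2V617F, 10 of the 11 tested. Because class I genes of the H2 cluster are near-identical copies, the split of reads between them is uncertain.

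The gene with the highest ratio in both genotype comparisons, neutrophil genes aside, was Tpm3-rs7, a tropomyosin 3 related sequence, at 5.04 (2.03 to 10.4), 5.3 (2.64 to 9.48), 144 (131 to 157) and 138 (132 to 145) CPM, with ratios of 3.28 and 3.35. Zfyve27, protrudin, measured 23, 20.7, 69.3 and 71.6 CPM, with ratios of 1.41 and 1.26. Both were spread over many members, with at most 1.44% and 2.13% of UMIs in 1 member of a KO library. Nkx2-3, a homeobox gene on the long-term stem cell list, measured 17.3, 16.4, 34.2 and 43.4 CPM (1.02 and 0.70). These genes were higher in both KO libraries. Tpm3-rs7 is a copy of Tpm3, so reads may be split between them.

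MHC class II genes were not alike across the genotype comparisons. With JAK2V617F, 3 of 7 were higher in KO, Cd74 at 1.45, H2-Aa at 1.02 and H2-Eb1 at 0.97, and with at least 4 stem markers required these were 0.26, 0.31 and 0.076, all under 1.5-fold. Thinned before the rule they were 0.091, 0.15 and -0.1. With JAK2WT, 4 of 8 were lower in KO, at a list median of -0.51. Of the S100 and neutrophil list, 7 of 11 tested genes were higher and 1, S100a4 at -0.73, lower in KO with JAK2V617F, at a median of 2.40. Without members of mixed markers 1 of 6 tested was higher and 2 lower, and the median turned to -0.15. The neutrophil markers on this list were used to leave those members out, so this change is partly set by construction. With JAK2WT, 4 of 8 tested were lower in KO and none higher. S100a8 had ratios of 3.50 and -1.39, and 0.51 with JAK2V617F without members of mixed markers. The matrix genes Dcn, Apod and Prg4 were among the lowest ratios of KO to WT, with 55%, 88% and 98.1% of their UMIs in 1 member of the WT JAK2V617F library. Of 8 mast cell genes, 7 were lower in KO with JAK2V617F, led by Cma1 and Cpa3. Without members of mixed markers Cma1 and Cpa3 stood at 0.25 and 0.042. Cpa3 is itself a marker used to leave members out, so its level falls by construction.

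Between the genotypes with JAK2WT, more genes were called than with JAK2V617F. Of 5665 tested, 291 were higher (5.14%) and 194 lower (3.42%), or 8.56% in all, at a median of 0.055, with the counting interval wholly past 1.5-fold for 109. The cycling counterparts had 197 of 5442 called. The comparison shares the WT JAK2WT library with that of JAK2V617F against JAK2WT in WT. Of 15 glycolysis genes 5 were higher and 1 lower in KO, with Pkm at 0.74 and Ldha at 0.66. Of 13 lymphoid-primed genes, 4 were lower, Il7r at -1.03, Dntt at -1.03, Satb1 at -0.88 and Notch1 at -0.75, and 2 were higher, Cd48 at 0.77 and Cd34 at 0.64. With no mitosis UMI allowed, Dntt turned to 0.41, and Satb1, Notch1 and Pkm stood at -0.46, -0.41 and 0.48, under 1.5-fold. Ldha stood at 0.37 when thinned first, and Cd34 at 0.53 without members of mixed markers.

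Gfi1b, Lyl1 and Erg were higher in KO with JAK2WT, at 0.95, 0.79 and 0.60, and Spi1 at 0.92. Of 19 tested immediate early and stress genes, 4 were lower and 1, Dusp2, was higher, at a median of 0.057, close to that of all genes. Klf4, Klf6 and Klf2, transcription factor genes of quiescence and stress, were lower, at -1.16, -0.92 and -0.88, with Klf2 at -0.13 when cells were thinned before the rule. Klf6 measured 141, 99.7, 69.6 and 69.4 CPM, higher in both WT libraries than in either KO library. Id2, an inhibitor of helix-loop-helix factors, measured 89.9, 22.6, 32.1 and 23.9 CPM and was lower, at -1.25. Socs2 was lower at -0.92, and Ly6a (Sca-1) at -0.76. The stromal marker Cxcl12 stood at 2.57, with 96.9% of its UMIs in 1 member of the KO JAK2WT library, and at 0.13 without it.

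The hedgehog pathway that Gli1 belongs to was barely measured in these cells. Of 15 listed genes only Smo, the signal transducer of the pathway, passed the level for testing, at 39.6 (29.8 to 51.5), 34.2 (26.7 to 43.1), 37.8 (31.5 to 44.9) and 31 (28.1 to 34.1) CPM, and it did not reach 1.5-fold in any comparison. Genes of the axis formed by casein kinase 2 and MIF, an inflammatory cytokine whose receptor includes CD74, were well measured. Mif stood at 645 (603 to 688), 614 (581 to 649), 548 (524 to 574) and 562 (549.6 to 575) CPM and reached 1.5-fold in none of the 4 comparisons. The kinase subunits Csnk2a1 and Csnk2b measured 72.7, 70.8, 78.7 and 90.5 and 97.9, 115, 110.3 and 118 CPM. Their ratios lay between -0.033 and 0.31 over the 4 comparisons. Cxcr4, the homing receptor of stem cells, measured 41.7, 26.5, 31.6 and 26.1 CPM and did not reach 1.5-fold in any comparison.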

How the data were processed

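The files deposited by the authors hold counts, which are raw UMIs of each gene in each cell barcode, made with the 10x Single Cell 3' v3.1 chemistry per the labels' protocols, with no normalisation. The submitters' processing notes name Cell Ranger 4.0.0, mm10 and Seurat 4.0.4, and give no role for Seurat in these files. Barcodes had already been called as cells when the files were deposited. The 4 libraries of hashing tags are not analysed here, which leaves no link from cells to mice, and each group is 1 sample. Sample titles gave the groups.

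The cell filter required 500 or more genes, 1000 or more UMIs and a mitochondrial share under 10%, and the members were then found by the rule given above. Doublets were not removed in the values reported, and Scrublet in scanpy 1.11.5 marked 9, 1, 0 and 38 members for an alternative. Counts were summed over the members of a library and expressed in CPM, with exact Poisson limits. Log2 ratios had 10 CPM added to both sides. A gene was tested with at least 25 CPM in either library and called at 1.5-fold. For shares, 95% intervals are Clopper-Pearson, and for their ratios they come from the normal approximation on the log scale. Detection was compared after each member was thinned to 3000 UMIs. Total UMIs were 72458173, 59165347, 84063880 and 114847114 over 12376, 5907, 7155 and 8762 barcodes, and 7987, 3602, 3999 and 6490 cells passed. Intervals cover counting error only.

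The members, the gene lists and the markers were chosen with earlier results of these data known, so a list is described by its counts and median beside those of all genes tested. Genes named in each comparison are the 10 at either extreme of the ratio that reach 50 CPM and 30 UMIs in the higher library, the genes of the lists and rule, Gli1, Jak2, GFP and the cell type markers. Not ranked were genes of mitochondria, ribosomal proteins, globins, antigen receptors and the Y chromosome, predicted genes, Xist, Tsix and the genes of the rule. Xist and Ddx3y were named as a check of donor sex, and Vldlr, Plscr1, Serpina3g, Zbtb20 and Clec12a because both genotypes called them. Promoter sequences came from RefSeq (GRCm38.p6). The scripts were tested on simulated data. Python 3.11.15 with numpy 2.4.6, scipy 1.17.1, pandas 2.3.3, anndata 0.12.19 and matplotlib 3.10.9 was used. Alternatives varied the marker, cycling and cell filters, depth, doublets, added CPM, level filter, scaling and weight of cells. A listed gene counted among the totals is not reported here.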

Additional observations from a re-analysis of the deposited data

Results flagged for a closer look

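A set of 7 genes had ratios that pointed in opposite directions in paired comparisons of the members, each past 1.5-fold on both sides. The difference between the paired ratios was not tested, since each group is 1 library. For JAK2V617F against JAK2WT, S100a8 had a log2 ratio of -0.90 in WT and 3.99 in KO, Prg2, the eosinophil and mast cell granule protein gene, -1.89 and 2.67, and Csrp3, a LIM domain protein gene, 0.84 and -0.88. For KO against WT, first with JAK2V617F and then with JAK2WT, S100a8 had ratios of 3.50 and -1.39, Prg2 of 2.92 and -1.64, Cd74 of 1.45 and -1.83, and H2-Eb1 of 0.97 and -0.82. Slpi, a protease inhibitor gene, had ratios of 0.63 and -1.31, Gzmb of -0.66 and 1.22, and Csrp3 of -0.59 and 1.13. Some of these directions rest on few cells or on the settings. Gzmb with JAK2WT turned to -1.68 when cells were thinned before the rule and to -0.45 without members of mixed markers, H2-Eb1 with JAK2V617F to -0.10 when thinned, and Prg2 in KO to -0.040 when thinned, with 69.9% of its UMIs in 1 member of the KO JAK2V617F library. When thinned, Cd74 with JAK2V617F stood at 0.091 and Csrp3 with JAK2WT at 0.50, under 1.5-fold, and without members of mixed markers S100a8 with JAK2V617F stood at 0.51. S100a8, Prg2 and Slpi are transcripts of mature granulocytes, whose markers were unequal between the libraries as given above, and the part of such cells was not tested. S100a8 is itself a marker used to leave members out, so its level without mixed members falls by construction. Its plasma cell background was close to or above the share in members in every library but KO JAK2WT, and the part of this was not tested.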

How the results depend on the processing

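No paired analysis was possible because each group is 1 library. Comparisons of members with and without GFP were not run, since 0, 1, 0 and 5 members held a GFP UMI. Leaving out mixed members or each gene's highest member was chosen after seeing the data. Genes that are themselves markers of another cell type fall in level by construction when mixed members are left out. The share of members kept the same lowest and highest library under every setting. It was 1.60%, 5.08%, 5.75% and 16.7% with at least 4 stem markers, 0.764%, 3.44%, 3.50% and 8.78% with no mitosis UMI, 2.68%, 7.52%, 8.42% and 20.4% under the stricter cell filter, and 1.41%, 4.94%, 4.70% and 11.6% without mixed members. Thinning before the rule gave 2.88%, 5.93%, 7.51% and 18.0%.

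Counts of called genes depended on the settings by construction, through fewer counts or another added value. For JAK2V617F in WT (871) they were 1387 with thinned cells, 1496 with no mitosis UMI, 172 with 50 CPM added, 1329 with 1 CPM and 539 with at least 50 CPM. In KO (60) they were 224 with thinned cells, 26 with 50 CPM added and 93 with 1 CPM. For KO against WT with JAK2V617F (90) they were 318, 156 with no mitosis UMI, 43, 162, 145 with at least 10 CPM and 51 with at least 50 CPM. With JAK2WT (485) they were 1131, 1084, 105, 870, 728 and 278 in the same sequence. Centring on the median moved the share of higher calls from 56.1% to 39.1% for JAK2V617F in WT (335 higher, 521 lower) and from 60.0% to 44.1% for KO against WT with JAK2WT (203 higher, 257 lower).

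Of 2422 values for 173 gene ratios, 1848 moved by less than counting error, 544 by more, and 30 turned sign, and of 1692 list medians 2 turned. The cause was not tested. For JAK2V617F in WT, Prg4 turned to -0.23 with 4 markers and -0.19 without endothelial or stromal members, Gzmb to -0.24 without mixed members, and the profibrotic list to -0.48 without doublets. In KO, Cxcl12 turned to 0.025 with 4 markers, 0.71 when thinned and 0.14 without its highest member. Thinning also turned Irf8 to 0.015, Lmo4 to 0.026 and Prg2 to -0.040. Pf4 turned to 0.054 with no mitosis UMI and 0.13 under the stricter filter, and Camp to -0.64 without mixed members. For KO against WT with JAK2V617F, 4 markers turned Apod to 0.18, Dcn to 0.34, Gsn to 0.17 and Prg4 to 0.44, and leaving out endothelial or stromal members turned them to 0.052, 0.031, 0.071 and 0.031. H2-Eb1 turned to -0.10 when thinned, and without mixed members Cma1 turned to 0.25, Cpa3 to 0.042 and the S100 list to -0.15. With JAK2WT, Gzmb turned to -1.68 when thinned and -0.45 without mixed members. Hp turned to -0.67 when thinned, -0.28 without endothelial or stromal members, -0.21 without mixed members and -0.13 without its highest member, and Dntt turned to 0.41 with no mitosis UMI. With 162 members in WT JAK2WT, genes under about 25 CPM there rest on few UMIs.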
